A study of Mus musculus with 8 samples.

Results

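Neurotrophins are secreted growth factors that control the survival, axon growth and synapses of developing neurons. Each binds a preferred receptor tyrosine kinase of the Trk family, BDNF and NT-4 binding TrkB and NT-3 binding TrkC, and all of them, as mature factors or as precursors, can bind the common receptor p75NTR, which has no kinase and belongs to the TNF receptor superfamily. The sorting receptors sortilin and SorCS2 carry neurotrophin precursors through the cell and join p75NTR at the surface. In the developing cortex, p75NTR is known from subplate neurons, the early-born cells beneath the cortical plate, and BDNF from excitatory neurons, which release it with activity.

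The 8 genes described here are *Ngfr* (p75NTR), the ligand genes *Bdnf*, *Ntf3* (NT-3) and *Ntf5* (NT-4), the Trk genes *Ntrk2* (TrkB) and *Ntrk3* (TrkC), and the sorting receptor genes *Sort1* (sortilin) and *Sorcs2*. They were taken by symbol from the 48709 genes counted. *Ngfr* was chosen by its counts in this comparison, which are raised in the mutant, so that its difference is given as a description without a test, and the others were included by family, with results of the same comparison already known. Of the 8 genes, 7 passed the filter on low counts, among 16287 genes tested, and *Ntf5* did not.

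RNA of whole cortical tissue at postnatal day 1 (P1) was sequenced from 4 control and 4 dcKO_Nex-Cre samples, 1 library each, on a C57BL6/J background. The dcKO_Nex-Cre mutants carry floxed alleles of *Smarcc1* (BAF155) and *Smarcc2* (BAF170), the scaffold subunits of the BAF chromatin remodeler, and Nex-Cre, which is expressed from the *Neurod6* locus and deletes in young excitatory neurons, leaving glia, interneurons and vessels undeleted. The controls were heterozygous for both floxed alleles and Cre negative, so that loss of the subunits and presence of the Cre allele cannot be told apart. The labels do not say whether each library came from a separate animal, and p-values then measure only the spread between these libraries. In whole tissue, fewer cells of a type and less RNA per cell cannot be told apart either.

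Total counts ranged from 17958641 to 35191912 per library. *Smarcc1* was at 69.2% and *Smarcc2* at 56.9% of the control level in the dcKO_Nex-Cre cortex, with log2 fold changes of -0.53 (adjusted p = 0.0348) and -0.81 (adjusted p = 0.00267) from edgeR's quasi-likelihood test. The strand setting of the counting is not known, and *Smarcc1* shares 123 exonic bases with *Dhx30* on the opposite strand. The projection neuron markers *Neurod2* and *Tbr1* were abundant in both groups, at 223 to 233 CPM and 176 to 178 CPM in the group means (CPM, counts scaled by edgeR's TMM library size), so that markers of the labelled tissue were present. dcKO_Nex-Cre replicate 4 stood apart from its group, with the fewest counts and 6.15% of them mitochondrial, against 2.33% to 3.47% in the other mutant libraries. Control replicate 2 stood apart in the same way, with the fewest counts of its group and 6.87% mitochondrial, against 3.38% to 4.24% in the other controls. Replicates 3 and 4 of the mutant carry lane tag 8 in their deposited names, while the other 6 libraries carry lane tag 2. Results are therefore also given without replicate 4 of the mutant, without replicate 2 of the control and within lane tag 2. Some are also given without replicate 1 of the mutant, the deepest library.

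Upstream sequences are shown for *Ngfr* and *Bdnf*, the genes whose libraries did not overlap between the groups. RefSeq's promoter table on GRCm38.p6 holds windows for 4 of the 8 genes, *Ngfr*, *Bdnf*, *Ntf3* and *Ntrk2*. The first sequence is the 213 bases before the annotated start of *Ngfr* (chr11:95587736-95587948, minus strand), with GC boxes in capitals (GGGCGG, searched on both strands), and the second is a stretch of 30 bases within *Bdnf* (chr2:109692387-109692416, plus strand), with a CRE-like element in capitals (TCACGTCA, on both strands), which is the kind of site through which CREB can act.
Ngfr: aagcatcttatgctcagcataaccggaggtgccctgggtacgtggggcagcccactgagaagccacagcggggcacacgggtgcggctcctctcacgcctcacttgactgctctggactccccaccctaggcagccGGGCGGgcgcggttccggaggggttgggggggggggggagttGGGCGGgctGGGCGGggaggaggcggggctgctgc
Bdnf: catatgacagcTCACGTCAaggcagcgtgg
The *Ngfr* stretch holds 3 GC boxes and 14 CpG. Over the 250 bases before the RefSeq start, *Ngfr* has 4 GC boxes, 16 CpG and a GC content of 70.4%, and 32.7% of the 32851 windows of that length in the table hold a GC box. No TATA box (TATAAA, both strands) was found there or in the other windows of these genes, and 12.4% of all windows hold that motif. *Bdnf*, which is transcribed from several alternative promoters, has 7 windows, of which 1 holds the CRE-like element, starting 38 bases before the RefSeq start, against 0.35% of all windows. These matches are descriptions of the sequence, and the counts per gene do not separate the promoters of *Bdnf*.

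*Ngfr* (ENSMUSG00000000120, chromosome 11 of GRCm38, 95568818 to 95587735, minus strand) was higher in each dcKO_Nex-Cre library than in any control library. The control libraries were at 7.60, 6.68, 8.64 and 6.34 CPM, from 166, 122, 207 and 144 counts. The dcKO_Nex-Cre libraries were at 24.1, 20.8, 18.6 and 16.4 CPM, from 831, 543, 450 and 292 counts. The groups are far apart, the lowest mutant library lying well above the highest control library, and the spread within each group is modest. The control mean of 7.315 ± 1.03 CPM stood against a mutant mean of 19.96 ± 3.29 CPM (SD, n = 4 each), which is 273% of it, and the fitted log2 fold change was 1.45 (SE 0.14). Within lane tag 2 the log2 fold change was 1.62, and it was 1.53 without dcKO_Nex-Cre replicate 4 and 1.42 without control replicate 2.

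*Bdnf*, the ligand of TrkB (ENSMUSG00000048482, chromosome 2, 109674700 to 109727007, plus strand), had its libraries arranged the other way. Its controls had 4.58, 3.67, 4.46 and 5.46 CPM, against 2.61, 3.07, 2.93 and 2.19 CPM in the mutants. Every mutant library lay below every control library, on low counts of 39 to 124 per library. The mean was 4.54 ± 0.73 CPM for control and 2.70 ± 0.39 CPM for dcKO_Nex-Cre (SD, n = 4 each), which is 59.4% of control, and the log2 fold change was -0.75 (SE 0.17). The difference did not pass the threshold of 0.05 in edgeR's quasi-likelihood test (adjusted p = 0.0801), whereas it did in DESeq2's Wald test (adjusted p = 0.00878) and in edgeR without dcKO_Nex-Cre replicate 4 (adjusted p = 0.0426, log2 fold change -0.66). Without control replicate 2 the log2 fold change was -0.83 (adjusted p = 0.0744, edgeR). Over all alternatives the adjusted p ranged from 0.00878 to 0.258, and within lane tag 2 the log2 fold change was -0.68 (adjusted p = 0.106, edgeR). The noncoding gene *Gm45346* shares 896 exonic bases with *Bdnf* on the opposite strand and had 0.25 counts per library on average.

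*Ntf3*, the ligand of TrkC (ENSMUSG00000049107, chromosome 6, 126101412 to 126166910, minus strand), was at 13.4, 13.0, 9.85 and 11.2 CPM in the control libraries. In the dcKO_Nex-Cre libraries it was at 19.2, 13.8, 11.8 and 14.9 CPM. Only mutant replicate 3 fell within the control range. Its log2 fold change was 0.34 (SE 0.16), which did not pass the test (adjusted p = 0.38, edgeR). *Ntf5*, which encodes NT-4, the other ligand of TrkB, had 1 count in a single control library, and 1 and 4 counts in 2 of the dcKO_Nex-Cre libraries. The remaining 5 libraries had 0 counts, which allows up to 3 counts or 0.087 to 0.168 CPM per library by counting error alone, and no fold is given.

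Of the Trk receptor genes, *Ntrk2* (ENSMUSG00000055254, chromosome 13, 58806569 to 59133970, plus strand) had the most counts. Its levels were 293, 246, 277 and 304 CPM in control, against 397, 287, 368 and 199.6 CPM in dcKO_Nex-Cre. The mutant libraries reached both above and below the control range, replicates 1 and 3 being the highest of all 8 libraries and replicate 4 the lowest. The log2 fold change was 0.16 (SE 0.18, adjusted p = 0.711, edgeR). Without dcKO_Nex-Cre replicate 4 it was 0.33 (SE 0.11, adjusted p = 0.0846, edgeR). *Ntrk3* (ENSMUSG00000059146, chromosome 7, 78175959 to 78738012, minus strand) was at 146, 169.6, 158 and 133 CPM in the control libraries and at 184, 161, 160.5 and 137 CPM in the mutant libraries. The groups overlapped, with mutant replicate 1 alone above the control range, and the log2 fold change was 0.08 (SE 0.10, adjusted p = 0.743, edgeR). *Gm9885*, a noncoding gene within an intron of *Ntrk3* on the opposite strand, had 6.11 ± 0.51 CPM in control and 5.01 ± 0.25 CPM in dcKO_Nex-Cre (SD, n = 4 each), without overlap between the groups but short of the threshold (adjusted p = 0.346, edgeR). Lower without overlap were 4.01% of all genes tested.

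In both sorting receptor genes, dcKO_Nex-Cre replicate 4 was the lowest library. *Sort1* (ENSMUSG00000068747, chromosome 3, 108284082 to 108361511, plus strand) was at 169, 151, 169 and 172 CPM in the control libraries and at 219, 194, 181 and 129.6 CPM in the dcKO_Nex-Cre libraries. Mutant replicates 1 to 3 lay above the whole control group and replicate 4 below it, and the log2 fold change was 0.13 (SE 0.13, adjusted p = 0.68, edgeR). Without replicate 4 it was 0.27 (adjusted p = 0.062), and within lane tag 2 it was 0.33 (adjusted p = 0.0838), both from edgeR. *Sorcs2* (ENSMUSG00000029093, chromosome 5, 36017180 to 36398139, minus strand) was at 23.7, 22.2, 22.1 and 27.4 CPM in the control libraries and at 24.9, 25.4, 22.6 and 14.4 CPM in the mutant libraries. Its log2 fold change of -0.12 (SE 0.16, adjusted p = 0.756, edgeR) turned to 0.03 without replicate 4, the only mutant library below the control range. Without control replicate 2, the 5 tested genes other than *Ngfr* and *Bdnf* had log2 fold changes of -0.15 for *Sorcs2*, 0.10 for *Sort1*, 0.11 for *Ntrk2*, 0.15 for *Ntrk3* and 0.39 for *Ntf3*, and none was called by edgeR. Without dcKO_Nex-Cre replicate 1, the same genes had -0.19 for *Sorcs2*, 0.029 for *Sort1*, 0.025 for *Ntrk2*, 0.012 for *Ntrk3* and 0.19 for *Ntf3*. None was called by edgeR there either.

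**Figure D1:**
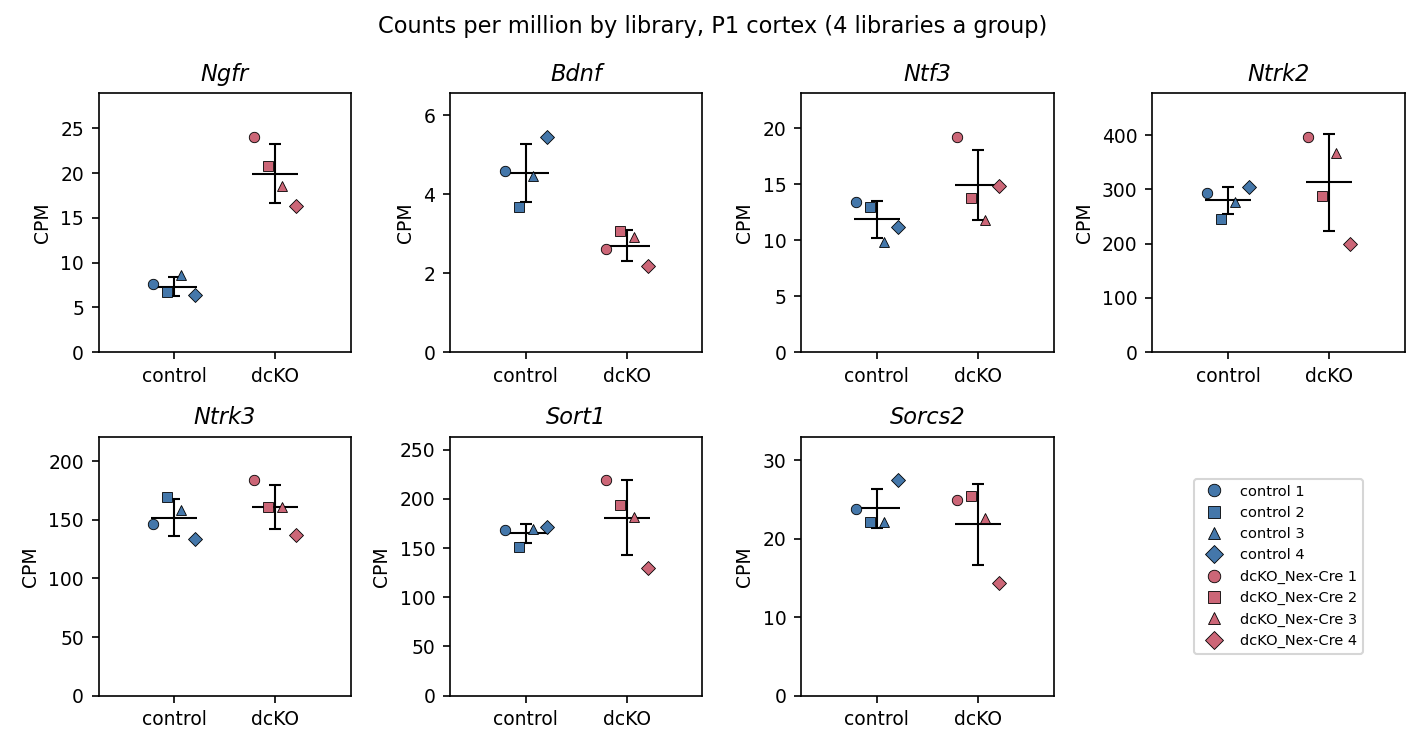
CPM (vertical axes, from 0) of the 7 tested genes in each library, control in blue and dcKO_Nex-Cre (dcKO) in red, with a marker shape for each replicate number. The labels do not say whether equal numbers are paired. Horizontal bars are means and whiskers SD, n = 4. *Ngfr* in the mutant lies at 16.4 to 24.1 CPM against 6.34 to 8.64 CPM in the control, *Bdnf* is separated in the opposite direction, and the red diamond of replicate 4 is the lowest mutant library for each gene except *Ntf3*.

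Apart from *Ngfr*, whose place among the called genes was known when it was chosen, none of the 6 tested genes was called at an adjusted p under 0.05 by edgeR, against 0.884% of all genes tested. At an unadjusted p under 0.05, 1 of the 6, *Bdnf*, was lower and none higher, against 7.05% and 6.59% of all genes tested. DESeq2 called 1 of the 6, *Bdnf*, lower, when it called 215 higher and 279 lower of all 16287 genes tested. Libraries were fully separated by group for *Ngfr* and *Bdnf*, 2 of the 7, against 7.99% of all genes tested, of which 3.98% were higher in the mutant, as for *Ngfr*, and 4.01% lower, as for *Bdnf*. Since the genes were chosen with this comparison known, nothing is read from these shares. The median log2 fold change of the 6 genes other than *Ngfr* was 0.11, against 0.0043 over all genes tested. dcKO_Nex-Cre replicate 4 was the lowest mutant library for 6 of the 7 genes, and 37.8% of all genes tested were lowest there. dcKO_Nex-Cre replicate 1, the deepest library, was the highest for 5 of the 7, and 30.9% of all genes tested were highest there. The coefficient of variation of *Ntrk2*, *Sort1* and *Sorcs2* was 20.8% to 28.4% in the mutant and 5.81% to 10.5% in the control, whereas for *Ngfr* it was 16.5% and 14.1%. The part of replicate 4's mitochondrial share and depth in these values was not tested.

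**Figure D2:**
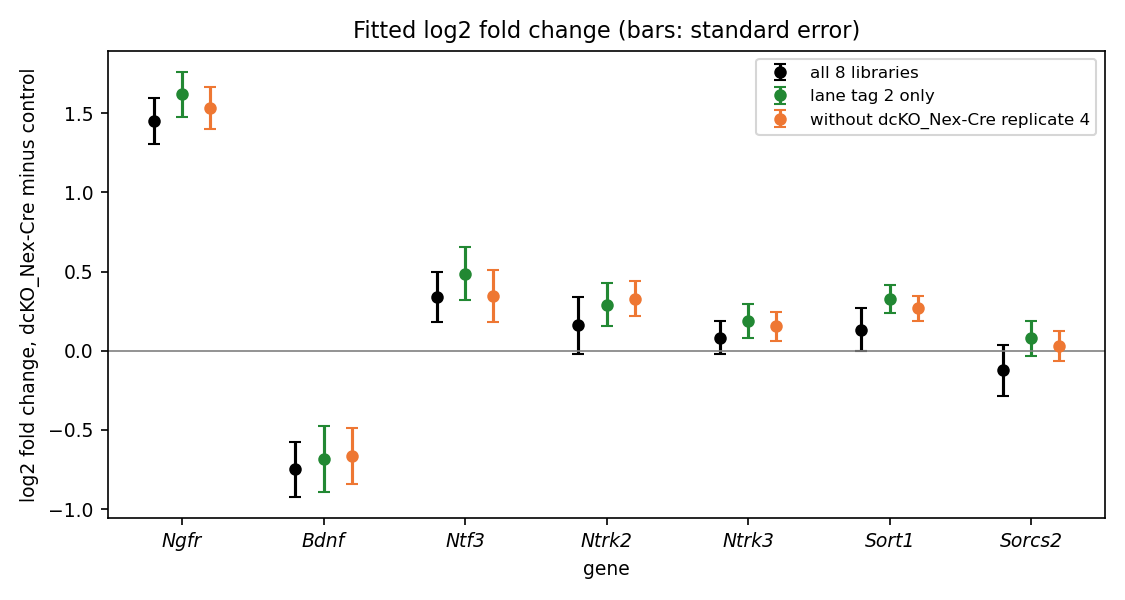
Fitted log2 fold change (dcKO_Nex-Cre minus control, vertical axis) with its SE for the 7 tested genes, from all 8 libraries (black), the 6 libraries of lane tag 2 (green) and without dcKO_Nex-Cre replicate 4 (orange). *Ngfr* stays between 1.45 and 1.62 and *Bdnf* between -0.75 and -0.66, while *Sorcs2* moves from -0.12 to above 0.

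Levels can be compared between genes only per length, here as CPM per kilobase of the exons of all annotated transcripts, which understates genes with many long isoforms such as *Ntrk3*. In the control cortex the order was *Sort1* at 21.8 ± 1.27, *Ntrk2* at 14.5 ± 1.30, *Ntf3* at 6.92 ± 0.96, *Ntrk3* at 5.03 ± 0.51, *Sorcs2* at 2.71 ± 0.29, *Ngfr* at 2.12 ± 0.30 and *Bdnf* at 0.73 ± 0.12 CPM per exon kilobase (SD, n = 4). No neighbours in this order overlapped between libraries, although *Ngfr* at its highest (2.506) all but met *Sorcs2* at its lowest (2.508). In the dcKO_Nex-Cre cortex *Ngfr* reached 5.79 ± 0.95 CPM per exon kilobase (SD, n = 4), its 3 lower libraries within the range of *Ntrk3* (4.55 to 6.09) and every one above *Sorcs2*. On this scale *Ngfr* went from above 33.8% to above 54.1% of the 16244 tested genes with a length, and *Bdnf* from above 17.6% to above 11.5%.

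Ratios on the same scale are given for each library. Their size depends on the exon lengths, 3446 bases for *Ngfr*, 19292 for *Ntrk2* and 30170 for *Ntrk3*, and the scale understates *Ntrk3*. A ratio near 1 need not mean equal levels, and the counts per gene do not separate isoforms. *Ngfr* over *Ntrk3* was 0.45, 0.34, 0.48 and 0.42 in the control libraries and 1.15, 1.13, 1.01 and 1.04 in the dcKO_Nex-Cre libraries. The ratio thus varied little within the mutant, replicate 4 included, with a mean of 1.08 ± 0.065 (SD, n = 4) against 0.42 ± 0.058 (SD, n = 4) in the control. *Ngfr* over *Ntrk2* was 0.15 ± 0.024 in the control and 0.37 ± 0.077 in the mutant (SD, n = 4). *Ntf3* over *Bdnf* lay at 7.43 to 12.8 in control libraries, against 14.6 to 26.8 in mutants, so that the libraries of the groups did not overlap. These ratios come from the comparison by which *Ngfr* was chosen and were given no test.

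**Figure D3:**
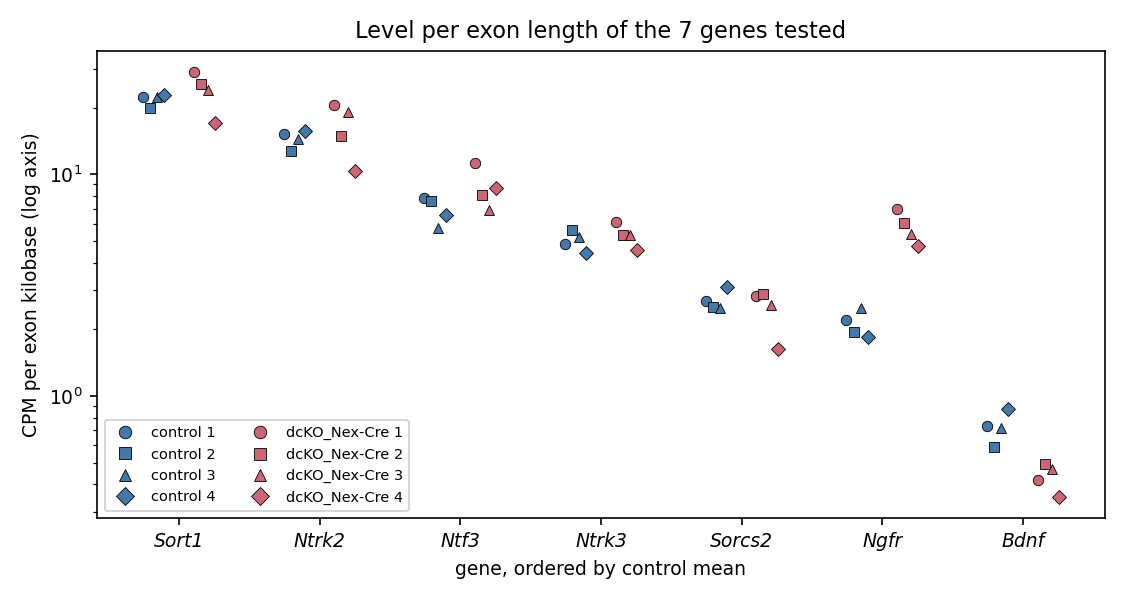
Level per exon length (CPM per exon kilobase, log axis) of the 7 tested genes in each library, ordered by control mean, control in blue and dcKO_Nex-Cre in red. *Ngfr* lies at 1.84 to 2.51 in the control and at 4.76 to 6.99 in the mutant. There it lies near *Ntrk3* on this scale, which understates *Ntrk3*.

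The rest of the pathway was examined in 80 genes of 8 lists, of which 79 were tested. None was called at an adjusted p under 0.05 by edgeR's quasi-likelihood test or by DESeq2's Wald test. Among all genes tested, edgeR called 0.375% higher and 0.51% lower, and DESeq2 called 215 higher and 279 lower of 16287. At an unadjusted p under 0.05, 9 of the 79 were higher and 4 lower, against 6.59% and 7.05% of all genes tested. The median log2 fold change was 0.056, against 0.0043 over all genes tested, and 53 of the 79 were above 0, as were 50.9% of all genes tested. These counts depended on dcKO_Nex-Cre replicate 4, since without it 6 genes were called higher (among them *Adam17*, *Gab1*, *Ncstn*, *Pcsk7* and *Tnfrsf1a*) and 1 lower (*Cd40*), when 3.98% of all genes tested were called higher and 3.74% lower in that fit. Within lane tag 2, *Pcsk2* alone was called, with a log2 fold change of 0.58 (adjusted p = 0.0312, edgeR), when 0.834% of all genes tested were called higher and 0.643% lower.

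By role, the gene with the largest absolute fold change is given for most lists. Among the p75NTR coreceptors and adaptors, *Ripk2*, a kinase that binds its death domain, had a log2 fold change of -0.32 (adjusted p = 0.34, edgeR). In the other sorting receptors it was *Sorcs1*, with -0.22 (adjusted p = 0.389, edgeR). Among the genes for processing of the precursors it was *Pcsk1*, a proprotein convertase of the regulated secretory pathway, with 4.17 ± 1.06 CPM in control and 2.54 ± 0.34 CPM in dcKO_Nex-Cre (SD, n = 4 each), without overlap between the groups and with a log2 fold change of -0.72 (adjusted p = 0.157, edgeR). Lower without overlap were 4.01% of all genes tested.

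Over all genes tested, 50.9% were above 0, and 6.59% were higher at an unadjusted p under 0.05. Of the 7 genes for shedding p75NTR and cleaving it in the membrane, 4 were above 0, with a median log2 fold change of 0.14. At an unadjusted p under 0.05, 3 of them were higher. Of the 19 Trk adaptors and effectors, 15 were above 0, with a median log2 fold change of 0.07, and 2 were higher at that threshold. The largest was *Gab1*, a docking protein, at 0.33 (adjusted p = 0.282, edgeR). Of the 7 genes that Trk signaling can induce, 3 were above 0, with a median log2 fold change of -0.09. The transcription factor gene *Egr2* had the largest absolute value, 0.70 (adjusted p = 0.334, edgeR), and *Vgf*, the gene of a secreted neuropeptide precursor, the opposite one of -0.65 (adjusted p = 0.249, edgeR). In the TNF receptor superfamily, to which p75NTR belongs, the 15 other members listed here ranged from -0.60 for *Tnfrsf11b* (adjusted p = 0.302, edgeR) to 0.51.

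**Figure D4:**
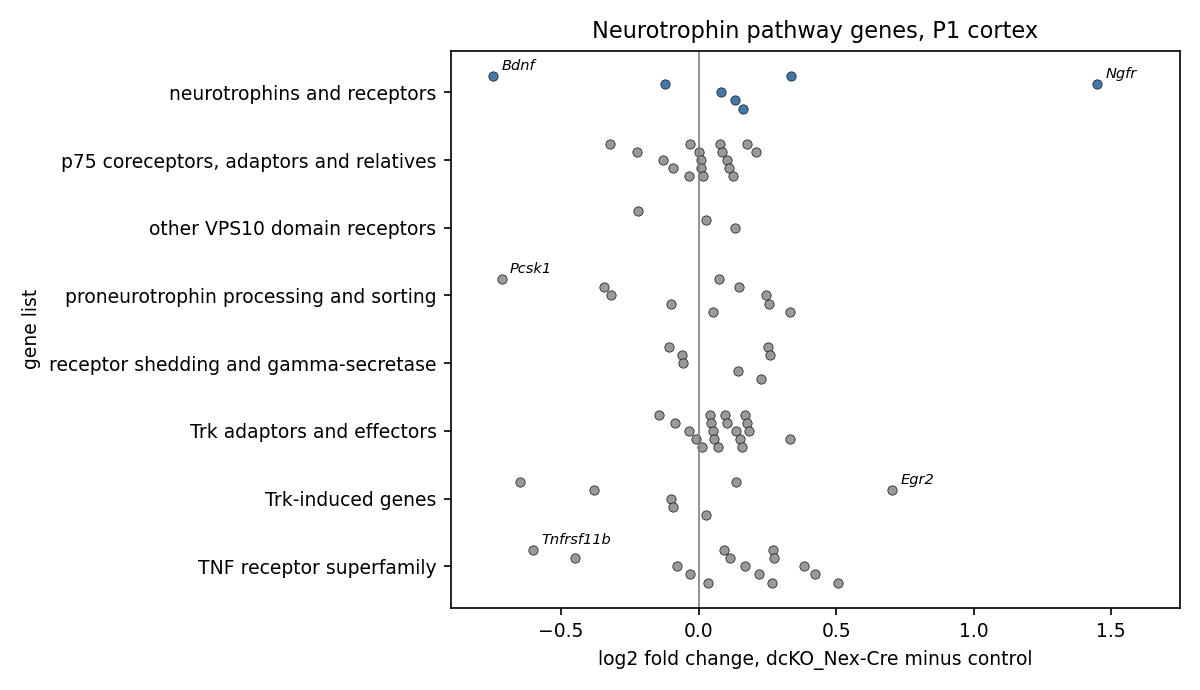
Log2 fold change (dcKO_Nex-Cre minus control, horizontal axis) of tested genes, 1 point a gene, by gene list (rows; vertical offsets within a row only separate points); blue marks the neurotrophin and receptor genes described above and grey the other pathway genes. *Ngfr*, chosen for being raised, lies at 1.45 and *Bdnf* at -0.75, and the grey points lie between -0.72 and 0.70.

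*Ngfr* was also set beside its genomic neighbours and beside markers of cells that could hold it. Of the 6 tested genes that start within 200 kb of its start, none was called by edgeR, against 0.375% of all genes tested called higher and 0.51% lower. DESeq2 called 1 of the 6 higher, when it called 215 higher and 279 lower of all 16287 genes tested. At an unadjusted p under 0.05, 2 were higher and none lower, against 6.59% and 7.05% of all genes tested. The nearest was *Nxph3*, a neurexophilin, 73165 bases away. *Nxph3* was at 41.8, 38.6, 46.4 and 45.2 CPM in the control libraries and at 62.5, 58.0, 49.5 and 64.7 CPM in the dcKO_Nex-Cre libraries. Its groups did not overlap either, with a log2 fold change of 0.45 (SE 0.098, adjusted p = 0.0645, edgeR). Higher without overlap were 3.98% of all genes tested. The other neighbours, *Phb*, *Gm9796*, *Zfp652*, *Zfp652os* and *Spop*, had log2 fold changes of -0.68 to 0.20.

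Of 9 projection neuron markers, 1 was called, *Emx1*, which fell (log2 fold change -0.60, adjusted p = 0.0332, edgeR), against 0.51% of all genes tested called lower. DESeq2 called 2 of these markers lower, against 279 of all 16287 genes tested. At an unadjusted p under 0.05, 3 were lower and none higher, against 7.05% and 6.59% of all genes tested. Besides *Emx1* these were *Fezf2* (log2 fold change -0.55) and *Slc17a7* (-0.54). The sum of the list was 1269 to 1419 CPM for control and 1154 to 1405 CPM for dcKO_Nex-Cre. Of the 8 subplate markers, 1 was called higher and none lower by edgeR, as by DESeq2. Of all genes tested, edgeR called 0.375% higher and 0.51% lower, and DESeq2 called 215 higher and 279 lower of 16287. At an unadjusted p under 0.05, 2 subplate markers were higher and 1 lower, against 6.59% and 7.05% of all genes tested. The called gene was *Cplx3*, a complexin of subplate neurons, which rose from 1.59 ± 0.59 CPM to 5.25 ± 0.92 CPM (SD, n = 4 each, log2 fold change 1.70, adjusted p = 0.0162, edgeR). The summed level of the list was 157 to 188 CPM for control and 136 to 178 CPM for dcKO_Nex-Cre, and its median log2 fold change was -0.11. *Svil* had a log2 fold change of 0.41 and *Nr4a2* of -0.54, and *Nxph4* and *Ccn2* had -0.10 and 0.01. The part of projection and subplate neurons in the level of *Ngfr* was not tested.

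All 7 oligodendrocyte precursor markers had log2 fold changes above 0, as had 50.9% of all genes tested. At an unadjusted p under 0.05, 4 were higher, as were 6.59% of all genes tested. The 1 called, *Cspg4* (0.56, adjusted p = 0.0355, edgeR), against 0.375% of all genes tested called higher, also stands in the list of pericyte markers. Their sum was 210 to 314 CPM in control libraries, against 313 to 378 CPM in the mutants. Their part in the level of *Ngfr* was not tested. Of the Schwann cell and neural crest list, 5 of 8 genes were tested, with none called by edgeR. DESeq2 called 1 of them higher, against 215 of all 16287 genes tested. At an unadjusted p under 0.05, 3 were higher and 1 lower, as were 6.59% and 7.05% of all genes tested. The sums were 41.6 to 52.4 CPM in control and 51.2 to 59.9 CPM in dcKO_Nex-Cre. *Sox10*, *Pmp22* and *Mal* had log2 fold changes of 0.40, 0.52 and 0.69 without overlap between the groups. Of all genes tested, 3.98% were higher without overlap. *Foxd3*, an early neural crest gene, had no more than 1 count per library. The part of these cells was not tested. Of the 8 markers of basal forebrain cholinergic neurons, which carry p75NTR, 4 were tested and none was called by edgeR (0 at an unadjusted p under 0.05, and 0 of the 2 with an adjusted p by DESeq2), with sums of 10.9 to 54.8 CPM and 9.71 to 76.7 CPM. The highest sums came from replicate 2 of either group. The part of these neurons was not tested. Over all 16 marker lists, the summed levels of the groups overlapped in 15. The exception was the thalamic list, at 113 to 128 CPM in the control and 89.6 to 109 CPM in the mutant. Of its 6 tested genes, edgeR called 1 lower, *Prkcd* (log2 fold change -0.67, adjusted p = 0.026), against 0.51% of all genes tested. DESeq2 also called 1 lower, against 279 of all 16287 genes tested. *Slc17a6* and *Lhx9* had -0.21 and -0.30, and *Tcf7l2*, *Rora* and *Lef1* had -0.01, 0.02 and 0.20. The part of thalamic neurons was not tested. The meningeal fibroblast list, with none of 8 called by edgeR (1 higher at an unadjusted p under 0.05) or DESeq2, summed to 21.7 to 51.2 CPM and 14.7 to 102 CPM.

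The 5 genes whose pattern over the 8 libraries was most like that of *Ngfr*, by the root mean square difference of log2 CPM from each gene's control mean, were *Rspo2* (0.26), *Adra1a* (0.27), *Edn1* (0.27), *Lrrn4* (0.30) and *Gm13219* (0.30). *Rspo2*, a secreted enhancer of WNT signaling, had 21.5 ± 2.23 CPM in control and 54.9 ± 10.1 CPM in dcKO_Nex-Cre (SD, n = 4 each). *Adra1a*, the alpha-1A adrenergic receptor gene, was at 1.01 ± 0.059 CPM and 2.44 ± 0.35 CPM, and *Edn1*, the gene of the peptide endothelin-1, at 1.27 ± 0.35 CPM and 3.36 ± 1.03 CPM (SD, n = 4). They were picked for their likeness among all genes tested, so that their differences are descriptions, and *Lrrn4* and *Gm13219* rest on 16 and 14.5 counts per library on average.

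**Figure D5:**
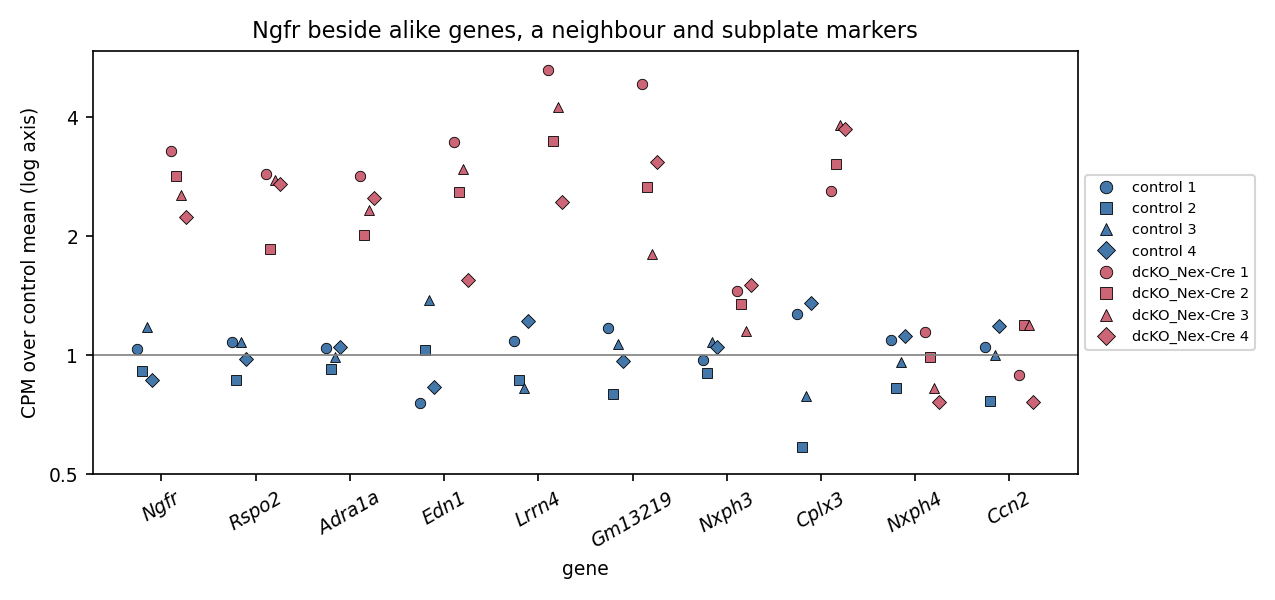
CPM of each library over the gene's control mean (log axis; grey line at 1) for *Ngfr*, the 5 most alike genes, the neighbour *Nxph3* and the subplate markers *Cplx3*, *Nxph4* and *Ccn2*, control in blue and dcKO_Nex-Cre in red. The red points of the first 8 genes lie above their blue points, while those of *Nxph4* and *Ccn2* (log2 fold changes -0.10 and 0.01) mix with them.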

How the data were processed

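The authors deposited counts, 1 unnormalized value per Ensembl gene and library, from total RNA of whole tissue and Illumina TruSeq libraries. The genome build is mm10 per the labels, and the aligner, counting program and strand setting are not given in the sources used here. Symbols, positions and exon lengths came from GENCODE M21 on GRCm38, and promoter windows from RefSeq on GRCm38.p6.

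Counts were fitted in R 4.3.3 with edgeR 4.0.16 on the whole table (filterByExpr, TMM, robust quasi-likelihood F test, two-sided, Benjamini-Hochberg over 16287 genes, threshold 0.05). No pair of libraries agreed within sampling noise. Log2 CPM used a prior count of 2. Alternatives were DESeq2 size factors, DESeq2 1.42.0, other filters, the replicate block, lane tag 2 and each library left out. Members, gene lists and tests were chosen with earlier results of these data known. Named genes are the members, the deleted genes, called pathway genes and the largest change of each list, the 5 genes most alike, neighbours within 200 kb, overlapping genes and leading cell type markers. Pathway genes called only under an alternative, and the genes *Emx1*, *Fezf2*, *Nr4a2*, *Svil*, *Cspg4*, *Sox10*, *Pmp22*, *Mal*, *Vgf*, *Prkcd*, *Slc17a6*, *Lhx9* and *Dhx30*, were named after their values were seen. Single values of some listed genes are not reported here.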

Additional observations from a re-analysis of the deposited data

Results flagged for a closer look

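CPM of the 8 genes, library totals and mitochondrial shares were checked for a library far from the other 3 of its group, in 20 groups of values, of which chance flags about 1 in 20. *Sort1* was at 150.85 CPM in control replicate 2, against 168.7 to 171.7 CPM in the other control libraries, and its log2 fold change was 0.10 without that library. *Ntf5* was at 0.044 CPM in control replicate 4, which is 1 count, against 0 in the other control libraries. A single count beside zeros always meets this rule, so the flag says nothing about that library.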

How the results depend on the processing

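*Ngfr* kept its direction in every alternative, with a log2 fold change of 1.35 to 1.54 when each library was left out and of 1.44 to 1.62 in the others. The genes called among the 8 were 2 in place of 1 with DESeq2's Wald test, and 1 to 2 when each library was left out, the second being *Bdnf* in both cases. *Sorcs2* reversed to 0.078 within lane tag 2, and ranged from -0.20 to 0.031 when each library was left out, reversing without dcKO_Nex-Cre replicate 4. The cause was not tested. Over all genes tested, 61 were called higher and 83 lower, against 109 and 150 without a filter, 215 and 279 with DESeq2's Wald test, 21 and 33 with the replicate block, 140 higher within lane tag 2, and 9 to 659 higher and 9 to 619 lower when each library was left out, the most without dcKO_Nex-Cre replicate 4 and the fewest without control replicate 1. Pathway genes called were 1 higher within lane tag 2, and 0 to 6 higher and 0 to 1 lower when each library was left out. The labels do not say whether same-numbered libraries are paired. Correlations of their deviations ranged from -0.14 to 0.13, not every library correlating best with its own number, which does not settle it. The replicate block changed no call among the 8 genes. Counts of 39 to 124 limit what can be said of *Bdnf*, and *Ntf5* was not measurable at this depth.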
